A study of Mus musculus with 34 samples.

Results

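Mouse embryonic stem (ES) cells lacking all MTA proteins were compared with control ES cells by RNA-seq, within the libraries whose labels give 48 h in N2B27 medium with neither the inhibitors nor LIF. The comparison holds 8 of the 34 samples of the series, 4 labelled Control and 4 labelled Mta123KO, and was chosen by culture label and genotype. All cells are of strain 129/Ola. Each genotype has 2 libraries from each of 2 numbered lines, so that replicates 1_1 and 1_2 are line 1 and replicates 2_1 and 2_2 are line 2. According to the study's methods, Mta123KO cells were derived from ES cells with both Mta1 alleles deleted and both Mta3 alleles floxed. In these, exons 2 to 18 of Mta2 were replaced by a puromycin cassette on 1 allele and deleted on the other, and Cre then deleted Mta3. The control line was derived alongside the parent of the knockout, with 1 Mta1 allele deleted, Mta2 intact and Mta3 floxed. Controls therefore also carry an Mta1 deletion, and Mta123KO cells went through the further targeting steps above. Whether libraries of a line came from separate cultures is not given. Adjusted p-values over the 8 libraries then measure the spread between libraries of 2 lines a genotype, and can be too small.

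The Nucleosome Remodelling and Deacetylation (NuRD) complex joins a chromatin remodeller, usually Chd4 in ES cells, to the histone deacetylases Hdac1 and Hdac2. Mta1, Mta2 and Mta3 form the scaffold of the deacetylase part, and Mbd2 or Mbd3 bridges the parts. In ES cells NuRD is known for tuning transcription at enhancers and promoters and for a role in exit from self-renewal. The inhibitor and LIF medium, 2iL, holds ES cells in the naive state, and N2B27 alone lets them leave it.

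Labels and file names disagreed on the culture. The 8 libraries labelled 48h are in files named for 2iL, and the 8 control and Mta123KO libraries labelled 2iL are in files named for 48 h, so all 16 were affected. Groups are named here by the sample labels. Levels of pluripotency genes were set side by side as CPM, each library's gene counts scaled to a common total. Klf4, a naive-state factor, was between 116.5 and 147.5 CPM in the 4 controls labelled 48h and between 2.89 and 7.70 in the 4 labelled 2iL. Esrrb, another naive factor, was between 646.2 and 710.1 CPM in the former and 42.3 and 74.0 in the latter. Genes of the next, formative, state ran the other way. Pou3f1 was between 1.07 and 2.01 CPM in controls labelled 48h and between 57.6 and 89.5 in those labelled 2iL, and Fgf5 between 0.0264 and 0.336 against 1.81 and 4.03. Dnmt3b, a de novo methyltransferase, was between 69.8 and 81.3 CPM against 684.5 and 1155. In every one of these genes the control groups did not overlap, and the libraries labelled 48h held the higher naive and the lower formative levels. Every result below is therefore a result on libraries labelled 48h whose marker levels go against that label.

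**Figure D1:**
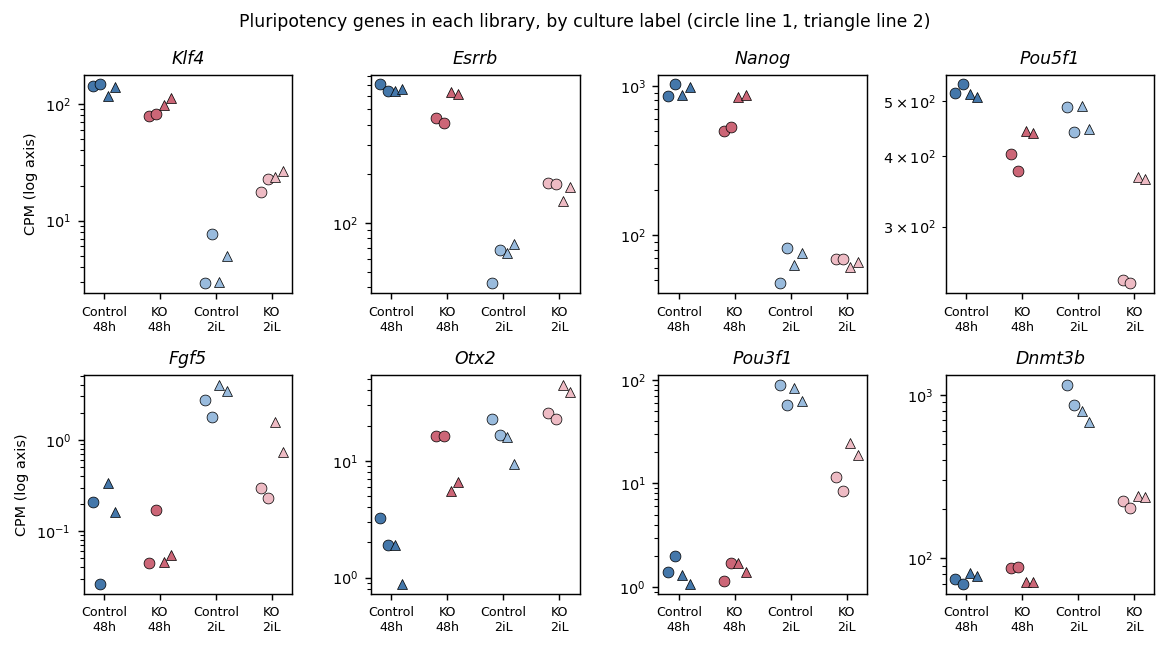
CPM (log axes) of 8 pluripotency genes in each of the 16 control and Mta123KO (KO) libraries by culture label. Circles are line 1, triangles line 2. Among controls, those labelled 48h had the higher Klf4, Esrrb and Nanog and the lower Fgf5, Pou3f1 and Dnmt3b.

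Library totals ran from 37855790 to 57602285 gene counts. At this depth counting error matters mainly for genes with few counts. The share of counts from mitochondrial genes was between 10.6% and 11.9% in controls, 16.5% and 18.1% in Mta123KO line 1 and 13.2% and 14.3% in line 2. Summed Y-linked genes were between 102.2 and 124.8 CPM in controls, 184.4 and 191.1 in line 1 and 82.5 and 84.4 in line 2. The biological coefficient of variation was 0.141 over the 4 controls and 0.244 over the 4 Mta123KO libraries, but 0.0759 and 0.0700 within each Mta123KO line, so most of the Mta123KO spread lay between its lines. On chromosome 1 the median gene differed from control by -0.09 (log2) in line 1 and 0.20 in line 2, and on chromosome 8 by -0.02 and -0.23, where the control lines themselves differed by -0.17 (line 1 minus line 2). The part of these library differences in the results was not tested.

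Mta2 fell in every Mta123KO library and Mta3 and Mta1 less far. In all that follows, levels are CPM after TMM scaling, listed in the order 1_1, 1_2, 2_1 and 2_2. Fold changes are log2 values with their standard errors, and adjusted p-values come from edgeR's quasi-likelihood test with Benjamini-Hochberg adjustment over 21079 genes tested. Mta2 was at 199.7, 183, 191 and 188 CPM in control and 10.4, 9.57, 6.49 and 6.58 CPM in Mta123KO (log2 fold change -4.53 ± 0.17, adjusted p = 6.48e-07). Mta3 was at 42.3, 40.8, 36.1 and 42.5 CPM in control and 18.7, 21.4, 9.48 and 10.3 CPM in Mta123KO (log2 fold change -1.44 ± 0.25, adjusted p = 0.00138). Mta1 was at 23.2, 24.3, 29.1 and 36.5 CPM in control and 18.8, 20.6, 15.5 and 16.3 CPM in Mta123KO (log2 fold change -0.67 ± 0.16, adjusted p = 0.0063). The groups did not overlap for any of them, and the controls carry only 1 intact Mta1 allele. Counts are summed over whole genes, and at Mta1 the deletion is of exon 2, so reads from the exons that remain still count. With the libraries of each line summed, 2 lines against 2, Mta2 still passed, while Mta1 and Mta3 did not (adjusted p = 0.0935 and 0.0511).

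Other NuRD subunits were called at about the background share, which was 14.1% increased and 5.93% decreased over all genes tested, at an adjusted p under 0.05 and over 2-fold. Of 14 further subunits and partners, 2 were increased, Chd3 and Mbd2, and 1 decreased, with a median log2 fold change of 0.06, and at an adjusted p under 0.05 alone 5 were higher and 3 lower. Chd3, named after its values were seen, is a remodeller related to Chd4, and the increased count was 1 without Control replicate 1_2 or either line 1 library of Mta123KO. Chd4, the remodeller, was at 438, 445, 442 and 453 CPM in control and 451, 442, 411 and 445 CPM in Mta123KO (log2 fold change -0.02 ± 0.05, adjusted p = 0.738), and those ranges overlap. Mbd3, the methyl-CpG-binding family member that bridges the complex, was at 26.6, 21.6, 26.4 and 25.7 CPM in control and 29.3, 27.4, 28.6 and 29.2 CPM in Mta123KO (log2 fold change 0.19 ± 0.08, adjusted p = 0.0787). Its paralogue Mbd2 rose, from 13.8, 11.8, 13.7 and 13.4 CPM in control to 29.8, 32.4, 22.0 and 23.5 in Mta123KO (log2 fold change 1.03 ± 0.13, adjusted p = 0.000251), by more in line 1 (1.28) than in line 2 (0.74). Gatad2b, which recruits the remodeller, differed by 0.33 ± 0.07 (adjusted p = 0.00425, 0.124 with the lines summed). Under scaling to the ERCC spike-ins that difference was 0.14, adjusted p = 0.627. Sall1, a zinc finger protein that binds NuRD, was the subunit list's decreased member in both lines, at 120.3, 105, 124 and 128 CPM in control and 46.7, 44.1, 53.3 and 52.0 CPM in Mta123KO (log2 fold change -1.28 ± 0.09, adjusted p = 9.26e-06).

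Of the 21079 genes tested, 2969 (14.1%) were increased and 1249 (5.93%) decreased in Mta123KO, at an adjusted p under 0.05 and a change of over 1 on the log2 scale, that is, over 2-fold. Increases outnumbered decreases by 2.38 to 1. Requiring all 4 Mta123KO libraries to lie beyond all 4 controls, and a difference over 1 in line 1 against control line 1 and again in line 2 against control line 2, left 2075 increased genes (9.84%) and 715 decreased (3.39%), called here increased or decreased in both lines. The line comparisons share no library. Another 581 increased genes moved by over 1 in line 1 only and 265 in line 2 only, and for decreased genes these numbers were 302 and 217. Of 5198 genes that differed by over 1 in line 1, 4765 had the same sign in line 2. Across the tested genes, which are not independent replicates, the line differences correlated with r = 0.755. Only 75 genes moved by over 1 in opposite directions. Among genes increased in both lines, 1320 of 2075 were further from control in line 1, as were 438 of 715 decreased genes. At an adjusted p under 0.05 with no limit on size, 26.6% of genes were higher and 23.4% lower. Increases made up 70.4% of calls, and 59.4% when libraries were scaled to the ERCC spike-ins, under which the median gene shifted by -0.18.

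**Figure D2:**
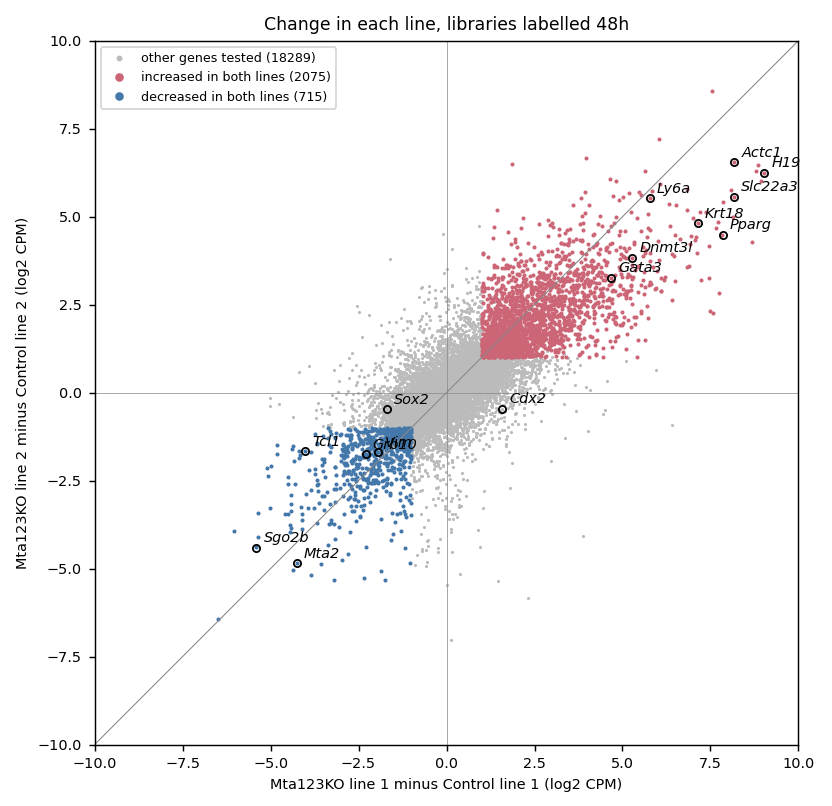
Difference in log2 CPM (prior count 2) of each of 21079 tested genes, Mta123KO line 1 minus control line 1 (horizontal) against line 2 minus control line 2 (vertical), with the line of equality. Genes increased in both lines (2075) are red and genes decreased in both lines (715) blue. Circled genes are named in the text, and Cdx2 and Sox2 lie off the diagonal.

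The largest increases among protein-coding genes called in both lines were in genes nearly silent in control. Gm27179, a predicted gene, had no count in any control library and 4.09, 9.63, 1.47 and 1.47 CPM in Mta123KO, at least 240.2-fold higher when 3 counts are allowed over the control group. Slc22a3, an organic cation transporter, had 1 count over the 4 controls and 9.88, 15.4, 2.47 and 2.53 CPM in Mta123KO, a ratio of 1304 (95% exact counting interval 233.7 to 51560.0). Actc1, cardiac alpha-actin, had 2 control counts and 14.8, 14.7, 5.56 and 4.52 CPM in Mta123KO (855.1-fold, 236.4 to 7066). For such genes the fitted log2 fold change rests on the prior count, and is not given. Pparg, the nuclear receptor of fat cell formation, and Hbb-y, an embryonic beta-like globin, each had 1 count over the controls. Pparg reached 8.54, 11.5, 1.20 and 1.13 CPM in Mta123KO (953.4-fold, 170.7 to 37690.0) and Hbb-y 2.52, 3.85, 2.20 and 2.31 CPM (482.4-fold, 86.2 to 19090.0). Every Mta123KO library stood above every control for these 5 genes, as the rule for a call in both lines requires. For each of them both line 1 libraries were also above both line 2 libraries. These intervals cover counting error only.

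The largest decreases were in genes of low to moderate level. Sgo2b, a shugoshin of sister chromatid cohesion, was at 4.05, 3.18, 3.30 and 2.01 CPM in control and 0.0693, 0.0220, 0.0890 and 0.0727 CPM in Mta123KO (log2 fold change -5.57 ± 0.36, adjusted p = 6.45e-06). Serpinb1b, a serine protease inhibitor, was at 1.21, 1.62, 1.83 and 0.579 CPM in control and 0.0231, 0.0220, 0.0222 and 0.0545 CPM in Mta123KO (log2 fold change -5.25 ± 0.51, adjusted p = 5.31e-05). Tmprss5, a membrane serine protease, was at 1.01, 1.12, 3.08 and 3.52 CPM in control and 0.0693, 0.0880, 0.0445 and 0.0363 CPM in Mta123KO (log2 fold change -5.15 ± 0.59, adjusted p = 0.000124). In Mta123KO these 3 genes were close to the limit of detection in every library. Mobp, a myelin protein gene, was at 5.56, 4.46, 4.13 and 3.87 CPM in control and 0.0462, 0.0220, 0.245 and 0.200 CPM in Mta123KO (log2 fold change -5.08 ± 0.46, adjusted p = 3.71e-05). Kirrel2, an immunoglobulin-like adhesion molecule, went from 18.1, 23.6, 17.1 and 21.8 CPM to 1.13, 0.836, 0.556 and 0.527 (log2 fold change -4.73 ± 0.25, adjusted p = 2.53e-06), the most abundant of the 5.

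Promoters of the first 2 genes of each set with an entry in the RefSeq table are shown, since the MBD subunits of NuRD are named for methyl-CpG binding. Each is 250 bases before to 50 bases after a transcription start on GRCm38.p6, 5′ to 3′ on the gene's strand, with each CG in capitals. The motif counted was CG, which reads the same on either strand.
Slc22a3: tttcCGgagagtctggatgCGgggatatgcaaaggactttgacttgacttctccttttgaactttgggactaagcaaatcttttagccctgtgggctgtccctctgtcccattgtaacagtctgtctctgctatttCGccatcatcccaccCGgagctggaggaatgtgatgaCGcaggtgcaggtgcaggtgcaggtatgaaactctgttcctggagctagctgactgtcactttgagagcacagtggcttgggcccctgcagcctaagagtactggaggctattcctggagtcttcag
Actc1: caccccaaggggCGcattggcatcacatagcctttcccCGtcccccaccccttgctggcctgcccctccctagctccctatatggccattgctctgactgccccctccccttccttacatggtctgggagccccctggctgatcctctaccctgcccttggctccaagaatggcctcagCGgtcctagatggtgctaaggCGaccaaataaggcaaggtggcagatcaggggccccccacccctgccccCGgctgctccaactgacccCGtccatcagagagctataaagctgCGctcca
Sgo2b: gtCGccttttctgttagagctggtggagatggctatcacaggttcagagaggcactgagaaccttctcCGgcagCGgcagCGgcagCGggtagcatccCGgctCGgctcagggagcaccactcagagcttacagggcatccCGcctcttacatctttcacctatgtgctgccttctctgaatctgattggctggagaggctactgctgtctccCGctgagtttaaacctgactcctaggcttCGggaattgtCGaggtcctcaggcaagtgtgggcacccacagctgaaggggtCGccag
Serpinb1b: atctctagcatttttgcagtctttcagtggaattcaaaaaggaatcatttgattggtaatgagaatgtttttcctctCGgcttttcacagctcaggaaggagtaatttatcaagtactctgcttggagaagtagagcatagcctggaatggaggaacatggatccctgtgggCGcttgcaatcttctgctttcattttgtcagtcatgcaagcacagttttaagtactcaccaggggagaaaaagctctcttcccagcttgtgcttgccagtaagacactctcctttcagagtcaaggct
The Slc22a3 window (chr17:12507655-12507954, minus strand) holds 5 CGs, and 62.0% of the 32851 windows in the table hold as many or more. Actc1 (chr2:114052826-114053125, minus strand) holds 7, with 52.1% holding as many or more. The windows of the decreased genes held 12 for Sgo2b (chr8:63952121-63952420, minus strand; 39.6%) and 2 for Serpinb1b (chr13:33083853-33084152, plus strand; 85.9%). A comparison over all called genes was void, since only 76.8% of tested protein-coding genes had a window, under the 80% needed.

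Among the genes tested, calls were concentrated in those at a low level in the control libraries labelled 2iL. Genes were divided into quartiles by mean CPM in these 4 libraries, which are outside the comparison. Their levels can differ from those of the compared controls, as for Klf4, at 2.89 to 7.70 CPM there and 116.5 to 147.5 in the latter. In the lowest quartile, up to 1.28 CPM, 28.8% were increased and 8.29% decreased. In the second, 17.9% and 7.95% were, and in the third, from 8.13 to 32.9 CPM, 7.23% and 4.65%. In the highest quartile 2.43% were increased and 2.81% decreased. The share of genes increased thus dropped at each step, and the excess of increases over decreases was absent from the top quartile. Detection of a 2-fold change also depends on level. The filter for low counts used the libraries compared here. A gene nearly silent in their controls was therefore tested only if Mta123KO expressed it, which favours increases in the low quartiles. How much of the excess of increases there came from the filter was not tested. By gene type, 16.3% of 15071 protein-coding genes were increased and 5.76% decreased, against 2.65% and 2.71% of 1587 processed pseudogenes.

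**Figure D3:**
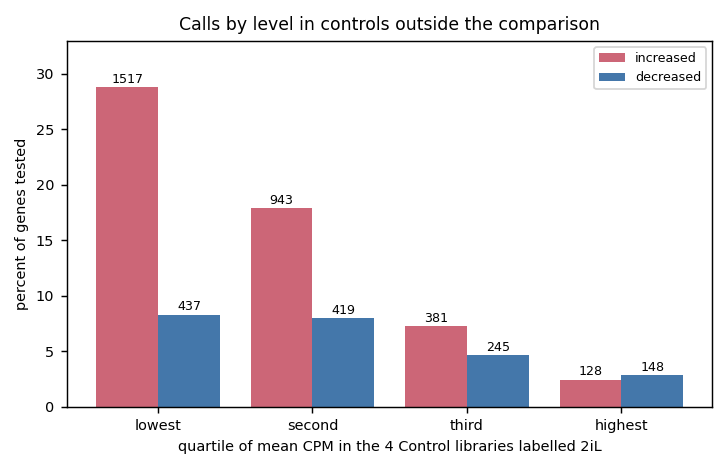
Percent of tested genes increased (red) and decreased (blue) in Mta123KO by quartile of mean CPM in the 4 Control libraries labelled 2iL. Numbers over the bars are genes. The increased share went from 28.8% in the lowest to 2.43% in the highest quartile.

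Gene lists were read against the shares over all genes tested, which were not matched for the level of a list's genes. The lists of trophoblast and epithelial genes had the highest shares of increased members among lists of cell types, and naive pluripotency and early neural genes the highest shares of decreased members. Some genes stand in several lists, Grhl2 among them, so the lists are not separate counts.

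**Figure D4:**
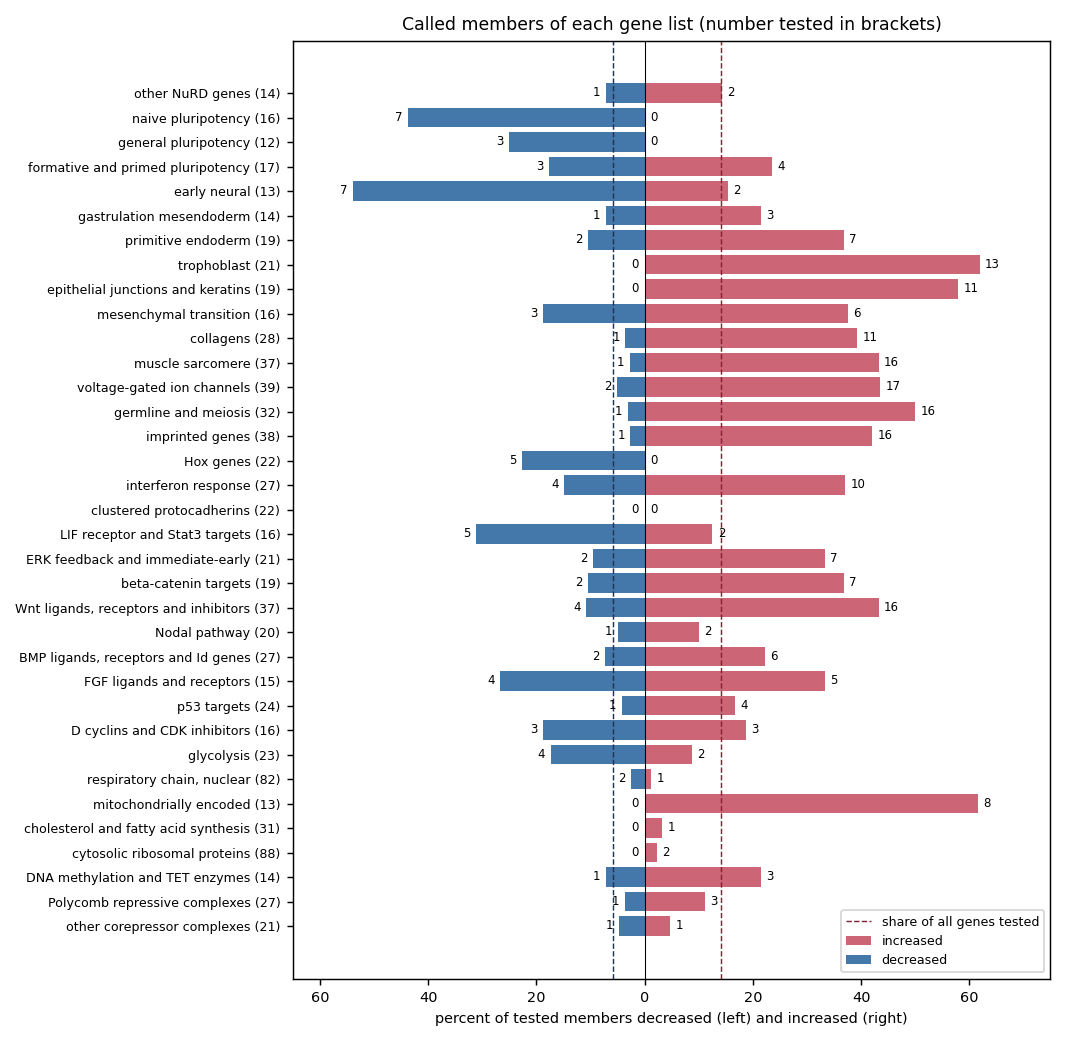
Percent of tested members of each list increased (right, red) and decreased (left, blue) in Mta123KO, for lists with at least 10 tested members (number in brackets). Numbers beside the bars are genes called, and dashed lines are the shares over all genes tested, 14.1% and 5.93%. Trophoblast (13 of 21) and epithelial genes (11 of 19) lie far to the right and early neural (7 of 13) and naive pluripotency genes (7 of 16) far to the left.

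Most trophoblast genes tested were increased. The trophoblast list covers the outer lineage of the early embryo that forms the placenta. In it 13 of 21 tested members were increased and 0 decreased, against 14.1% and 5.93% of all genes. All 13 were increased in both lines, with a list median of 2.29 against 0.01 over all genes. Another 4 were lower at an adjusted p under 0.05 by less than 2-fold, among them Tfap2c, Ets2 and Tfrc, named after their values were seen. Gata3, a trophoblast transcription factor, was at 0.315, 0.235, 0.427 and 0.255 CPM in control and 7.20, 8.91, 3.45 and 3.65 CPM in Mta123KO (log2 fold change 4.22 ± 0.39, adjusted p = 4.11e-05). Gata2, a related factor, was at 2.45, 2.32, 1.76 and 2.29 CPM in control and 78.7, 94.8, 12.9 and 17.8 CPM in Mta123KO (log2 fold change 4.53 ± 0.67, adjusted p = 0.000553). Plac1, a placenta-enriched X-linked gene, was at 0.0349, 0.104, 0.0237 and 0.116 CPM in control and 12.9, 15.6, 2.00 and 2.13 CPM in Mta123KO (log2 fold change 6.87 ± 0.97, adjusted p = 0.00043). For these 3 genes no Mta123KO library overlapped control, and both line 1 libraries were above both line 2 libraries. For Gata2 and Plac1 the lack of overlap follows from their choice among genes called in both lines. Elf5, which maintains trophoblast stem cells, rose but remained low, at 0.140, 0.156, 0.403 and 0.347 CPM in control and 1.06, 1.10, 1.20 and 1.69 CPM in Mta123KO (log2 fold change 2.28 ± 0.36, adjusted p = 0.00078). Cdx2, a defining gene of the lineage, was split by line. It was at 1.15, 0.990, 0.901 and 1.09 CPM in control and 3.07, 3.45, 0.601 and 0.836 CPM in Mta123KO, above control in line 1 and below it in line 2 (log2 fold change 0.94 ± 0.52, adjusted p = 0.163). The adjusted p was under 0.05 without Mta123KO replicate 2_1 (1.24, adjusted p = 0.0363). Eomes, shared by trophoblast and mesendoderm, differed by -0.50 ± 0.26 (adjusted p = 0.134), and by -0.71, adjusted p = 0.0395 without the same library. The summed level of the list was between 712.1 and 893.1 CPM in controls, 1018 and 1096 in line 1 and 684.0 and 728.5 in line 2. Many genes of the list thus rose from low levels without a higher sum in line 2.

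Most epithelial keratin and junction genes tested were also increased. In that list 11 of 19 tested members were increased, 9 of them in both lines, and 0 decreased (median 1.49). The shares over all genes were 14.1% and 5.93%. Krt18, a keratin of simple epithelia, was at 2.11, 2.61, 1.92 and 2.15 CPM in control and 331, 344, 57.4 and 59.4 CPM in Mta123KO (log2 fold change 6.49 ± 0.73, adjusted p = 0.00012). Its partner Krt8 was at 6.01, 4.64, 6.83 and 5.53 CPM in control and 326, 351, 65.4 and 69.5 CPM in Mta123KO (log2 fold change 5.14 ± 0.63, adjusted p = 0.000193). Both keratins were highest in line 1, and line 2 stood between line 1 and control. Grhl2, a transcription factor of epithelial identity, was at 2.97, 2.22, 2.13 and 1.94 CPM in control and 23.7, 26.6, 13.4 and 14.3 CPM in Mta123KO (log2 fold change 3.07 ± 0.26, adjusted p = 2.63e-05). Cdh1, the epithelial cadherin that ES cells already express, was at 411, 409, 409 and 446 CPM in control and 731, 735, 509.6 and 548 CPM in Mta123KO (log2 fold change 0.59 ± 0.12, adjusted p = 0.00359), a rise of under 2-fold that was 0.41, adjusted p = 0.12 under ERCC scaling, and adjusted p = 0.0857 with the lines summed.

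Mesenchymal genes split. In the mesenchymal transition list 6 of 16 tested members were increased and 3 decreased, against 14.1% and 5.93% of all genes. Vim, the intermediate filament vimentin, fell from 179, 166, 165 and 175 CPM to 49.4, 40.3, 54.0 and 51.0 (log2 fold change -1.82 ± 0.09, adjusted p = 2.2e-06). Cdh2, the neural and mesenchymal cadherin, fell from 4.61, 3.94, 4.55 and 3.29 to 1.20, 1.06, 1.40 and 1.73 CPM (log2 fold change -1.601 ± 0.20, adjusted p = 0.00019). Tagln, an actin-binding protein of smooth muscle, rose from 1.75, 1.09, 1.76 and 1.11 to 40.0, 35.2, 11.6 and 10.3 CPM (log2 fold change 4.08 ± 0.51, adjusted p = 0.000198). For all 3 the groups did not overlap, and the change kept its sign in both lines. For Tagln both follow from its choice among genes called in both lines.

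**Figure D5:**
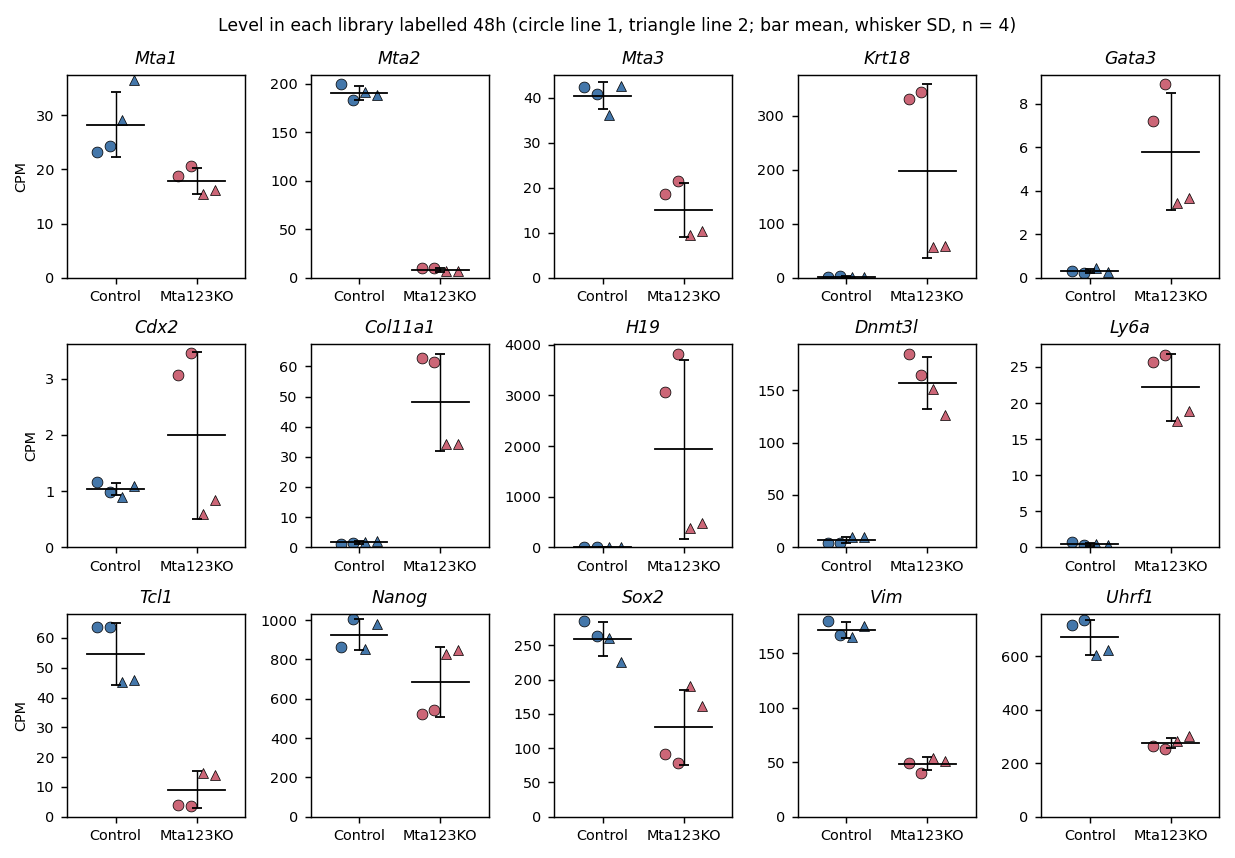
CPM (linear axes from 0) of 15 genes in each of the 8 libraries labelled 48h. Circles are line 1, triangles line 2, the bar is the mean and the whisker the SD (n = 4). Krt18, Gata3, Col11a1 and H19 were higher in both Mta123KO lines and highest in line 1, Cdx2 was higher in line 1 only, and Nanog and Sox2 were lowest in line 1. Col11a1 and H19 were chosen among genes called in both lines.

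Most naive pluripotency genes fell. Of 16 tested, 13 had a lower level at an adjusted p under 0.05, against 23.4% of all genes. Of these 7 were lower by over 2-fold, against 5.93% of all genes, and 5 in both lines. No naive gene was increased (median -0.80). The summed level of the list was between 4866 and 5552 CPM in control, 2522 and 2647 in line 1 and 3655 and 3718 in line 2. Tcl1, a coactivator of Akt expressed in naive cells, was at 63.5, 63.8, 45.2 and 46.0 CPM in control and 4.06, 3.72, 14.8 and 14.0 CPM in Mta123KO (log2 fold change -2.57 ± 0.45, adjusted p = 0.00144). Fgf4, the ES cell growth factor, was at 246, 226, 223 and 209.7 CPM in control and 56.8, 53.4, 122 and 119.9 CPM in Mta123KO (log2 fold change -1.36 ± 0.27, adjusted p = 0.00276). Both fell further in line 1 than in line 2, and with the lines summed their adjusted p-values were 0.0538 and 0.0669. Klf4 fell from 145, 146, 115 and 139 to 82.3, 84.3, 97.0 and 111 CPM (log2 fold change -0.54 ± 0.11, adjusted p = 0.00366). Zfp42, a naive marker, fell from 70.2, 68.2, 80.8 and 66.4 to 41.5, 41.2, 54.7 and 50.6 CPM (log2 fold change -0.60 ± 0.11, adjusted p = 0.00182). Neither reached 2-fold, though no Mta123KO library overlapped control, and with the lines summed the adjusted p was 0.0711 for Klf4 and 0.0543 for Zfp42. For Klf4 the fit of 16 libraries gave -0.55, adjusted p = 0.0559. Nanog was at 862, 1008, 852 and 979.5 CPM in control and 522, 544, 829 and 849.8 CPM in Mta123KO (log2 fold change -0.43 ± 0.17, adjusted p = 0.0563) and Esrrb at 715, 641, 638 and 656 CPM in control and 462, 421, 627 and 608 CPM in Mta123KO (log2 fold change -0.32 ± 0.13, adjusted p = 0.0613). For both, all 4 Mta123KO libraries lay below every control, line 2 only just, and leaving out either line 2 library brought the adjusted p under 0.05 (without Mta123KO replicate 2_1, Nanog -0.53, adjusted p = 0.028 and Esrrb -0.41, adjusted p = 0.0225).

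The core factors of pluripotency remained expressed. Pou5f1, encoding Oct4, was at 519, 527, 509 and 503 CPM in control and 421, 386, 432 and 432 CPM in Mta123KO (log2 fold change -0.30 ± 0.06, adjusted p = 0.00252). Sox2, its partner, was at 286, 263, 261 and 226 CPM in control and 90.8, 78.1, 191 and 161 CPM in Mta123KO (log2 fold change -0.99 ± 0.26, adjusted p = 0.0115), by -1.70 in line 1 and -0.47 in line 2. In the general pluripotency list 0 of 12 tested members were increased and 3 decreased, against 14.1% and 5.93% of all genes. The decreased members included Dppa2 and Foxd3, named after their values were seen. The increased count was 1 without Control replicate 2_1, Mta123KO replicate 1_1 or Mta123KO replicate 2_2. With the lines summed, the adjusted p was 0.0998 for Pou5f1 and 0.108 for Sox2.

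Formative and primed genes did not move as 1 group. Among 17 tested members, 4 were increased, all in both lines, and 3 decreased, a number that was 1 without Control replicate 2_1. The median was 0.04, and over all genes 14.1% were increased and 5.93% decreased. Otx2, a factor of the formative epiblast, was at 3.27, 1.88, 1.87 and 0.879 CPM in control and 17.0, 16.7, 5.36 and 6.49 CPM in Mta123KO (log2 fold change 2.51 ± 0.49, adjusted p = 0.00243, 0.0549 with the lines summed). Sall2, a zinc finger factor, fell from 7.55, 8.50, 7.97 and 9.30 to 2.33, 3.12, 2.47 and 2.69 CPM (log2 fold change -1.65 ± 0.14, adjusted p = 2.15e-05). Fgf5, the classical marker of this state, was not tested, at 0.210, 0.0261, 0.332 and 0.162 CPM in control and 0.0462, 0.176, 0.0445 and 0.0545 CPM in Mta123KO. Isolated members thus moved in opposite directions while Fgf5 stayed near the limit of detection in every library.

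Early neural genes were more often decreased than increased. Of 13 tested members 7 were decreased, 4 in both lines, and 2 increased (median -1.14). Over all genes 5.93% were decreased and 14.1% increased. Pax6, a neural transcription factor, was at 2.36, 0.756, 3.37 and 1.67 CPM in control and 0.554, 0.462, 0.311 and 0.654 CPM in Mta123KO (log2 fold change -2.03 ± 0.43, adjusted p = 0.0041). Hesx1, a repressor of the anterior neural region, was at 6.5, 6.57, 2.47 and 3.54 CPM in control and 0.785, 0.946, 1.22 and 1.29 CPM in Mta123KO (log2 fold change -2.16 ± 0.34, adjusted p = 0.000768). Sox1, the earliest neuroectoderm marker, was at 0.821, 1.51, 2.06 and 2.66 CPM in control and 0.623, 0.836, 1.20 and 1.13 CPM in Mta123KO (log2 fold change -0.89 ± 0.36, adjusted p = 0.0675), with overlap between the groups. It was -1.14, adjusted p = 0.0147 without Control replicate 1_1. Nes, which encodes the neural marker nestin and was named after its values were seen, went the other way. Before TMM scaling it was at 19.07 to 26.87 CPM in control and 28.69 to 38.65 in Mta123KO. The Nes difference was 0.332 in line 1 and 0.872 in line 2, under 2-fold in both. The summed list did not separate the genotypes, at 100.8 to 106.5 CPM in control, 70.9 and 71.4 in line 1 and 99.96 and 110.2 in line 2. With the lines summed, 3 members of the list were decreased.

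In the gastrulation mesendoderm list 3 of 14 tested members were increased and 1 decreased, against 14.1% and 5.93% of all genes. Without Mta123KO replicate 1_1, 6 were increased. Wnt3, the ligand that starts the primitive streak, was at 0.559, 0.313, 0.237 and 0.555 CPM in control and 9.21, 7.15, 1.16 and 1.22 CPM in Mta123KO (log2 fold change 3.46 ± 0.75, adjusted p = 0.00437, 0.0713 with the lines summed). Gsc, an organizer homeobox gene, fell from 4.94, 4.90, 2.96 and 4.999 to 0.670, 0.726, 1.42 and 1.58 CPM (log2 fold change -2.01 ± 0.32, adjusted p = 0.000766). Foxa2, an endoderm factor, was not tested, with levels of 0.0874, 0, 0.0237 and 0.0463 CPM in control and 0.646, 0.572, 0.111 and 0.236 CPM in Mta123KO. In the Hox list, the genes of axial position, 0 of 22 tested members were increased and 5 decreased. Hoxa7 fell from 1.33, 1.51, 2.16 and 2.48 to 0.277, 0.132, 0.133 and 0.254 CPM (log2 fold change -3.20 ± 0.33, adjusted p = 7.69e-05). The Hox median was -0.29 in line 1 and -0.93 in line 2, and 8 members were decreased without Mta123KO replicate 1_2.

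Primitive endoderm genes, those of the yolk sac lineage, showed more increases than decreases (7 and 2 of 19, median 0.86), as did all genes tested (14.1% and 5.93%). The defining transcription factors of the lineage did not rise together. Gata4 fell from 1.57, 1.75, 1.80 and 2.34 to 0.416, 0.550, 0.4004 and 0.509 CPM (log2 fold change -1.98 ± 0.21, adjusted p = 8.29e-05). Gata6 was at 0.0699, 0.313, 0.356 and 0.208 CPM in control and 0.831, 0.858, 0.334 and 0.254 CPM in Mta123KO (log2 fold change 1.29 ± 0.55, adjusted p = 0.0788), higher than control in line 1 only, and passed without Mta123KO replicate 2_2 (1.54, adjusted p = 0.0405). The increased members, named after their values were seen, were Dab2, Lamb1, Col4a1, Col4a2, Amn, Pth1r and Srgn, and the decreased ones Gata4 and Lama1, of which 1 was decreased without Control replicate 1_1 or 1_2. Dab2, an endocytic adaptor, was at 0.874, 1.15, 0.996 and 0.532 CPM in control and 13.1, 13.8, 16.7 and 15.01 CPM in Mta123KO (log2 fold change 4.05 ± 0.21, adjusted p = 2.65e-06). Col4a1, a basement membrane collagen, was at 3.65, 3.88, 6.90 and 6.57 CPM in control and 36.2, 41.1, 39.8 and 36.1 CPM in Mta123KO (log2 fold change 2.87 ± 0.21, adjusted p = 1.27e-05). The summed level of the list was between 925.2 and 987.4 CPM in control and 761.3 and 948.5 in Mta123KO.

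Lists of mature tissue genes held more increased than decreased members, as did all genes tested (14.1% and 5.93%). The increased shares were 39.3% for collagens, 43.2% for sarcomere genes and 43.6% for ion channels. The background was not matched for level, and in the lowest level quartile 28.8% of genes were increased. Among collagens 11 of 28 were increased, all in both lines, and 1 was decreased. Col11a1, a fibrillar collagen of cartilage, was at 1.19, 1.36, 1.68 and 2.13 CPM in control and 62.7, 61.5, 34.2 and 34.3 CPM in Mta123KO (log2 fold change 4.93 ± 0.30, adjusted p = 4.53e-06). In the muscle sarcomere list 16 of 37 tested members were increased and 1 decreased, or 2 decreased without Control replicate 2_1, Control replicate 2_2 or either line 1 library of Mta123KO. Tnnt3, fast skeletal troponin T, was at 0.0175, 0.0261, 0.0712 and 0.0231 CPM in control and 2.05, 2.31, 0.601 and 0.618 CPM in Mta123KO (log2 fold change 5.27 ± 0.71, adjusted p = 0.000322), while Tnni1, slow skeletal troponin I, fell from 9.35, 12.2, 7.59 and 8.61 to 2.45, 4.73, 2.40 and 2.89 CPM (log2 fold change -1.597 ± 0.24, adjusted p = 0.000667). Of the sarcomere genes, 11 were increased with the lines summed. Among voltage-gated ion channels 17 of 39 were increased, 12 in both lines, and 2 decreased. Hcn4, the pacemaker channel, was at 0.402, 0.417, 0.640 and 0.810 CPM in control and 3.07, 3.21, 2.18 and 2.74 CPM in Mta123KO (log2 fold change 2.30 ± 0.26, adjusted p = 0.00012). Kcnc1, a potassium channel of fast-spiking neurons, was at 0.105, 0.156, 0.0237 and 0.0926 CPM in control and 8.64, 8.54, 1.45 and 1.45 CPM in Mta123KO (log2 fold change 5.70 ± 0.85, adjusted p = 0.000563).

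Markers of fibroblasts, the usual feeder cells, were low. Of 12 markers 6 were tested and 2 increased, against 14.1% of all genes. Their sum was between 16.5 and 24.4 CPM in control and 28.5 and 42.5 in Mta123KO. Dcn was at 0 in all 4 controls and at most 0.193 CPM in Mta123KO, Col3a1 was at most 0.375 CPM anywhere, and Col1a1 was between 0.866 and 1.40 CPM over the 8 libraries. Thy1 was at 0.524, 0.599, 0.474 and 0.370 CPM in control and 1.55, 0.946, 4.07 and 3.83 CPM in Mta123KO (log2 fold change 2.40 ± 0.47, adjusted p = 0.00257, 0.0607 with the lines summed). Of 11 erythroid genes 4 were tested and 2 increased, Hbb-y and Gata1, the latter named after its values were seen. The list's sum was between 2.48 and 2.58 CPM in control and 4.92 and 6.89 in Mta123KO. Most of that rise was Hbb-y, at most 0.0261 CPM in control and 2.20 to 3.85 in Mta123KO. Alas2 and Klf1 were also named after their values were seen. Before TMM scaling, Alas2 was lower, at 1.05 to 1.32 CPM in control and 0.813 to 1.01 in Mta123KO. Klf1 overlapped, at 0.938 to 1.23 and 0.940 to 1.20 CPM. In bulk RNA, fewer cells of a type and less RNA per cell cannot be told apart, and the part of other cell types in the lists above was not tested.

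Genes of germ cells and meiosis were increased in 16 of 32 cases, 12 in both lines, with a median of 1.24. Over all genes tested 14.1% were increased and 5.93% decreased. Nobox, an oocyte factor, was at 0.157, 0.104, 0.142 and 0.0463 CPM in control and 6.23, 6.29, 1.16 and 1.34 CPM in Mta123KO (log2 fold change 4.995 ± 0.74, adjusted p = 0.000556). Dazl, a germ cell RNA-binding protein, was the decreased member, from 17.9, 27.6, 16.8 and 24.3 to 5.77, 4.58, 13.6 and 13.01 CPM (log2 fold change -1.22 ± 0.35, adjusted p = 0.0168), by -2.10 in line 1 and -0.60 in line 2. With the lines summed its adjusted p was 0.123, and 0 members of the list were decreased. Sycp3, of the meiotic axis, was at 6.67, 7.01, 6.64 and 8.24 CPM in control and 8.45, 10.1, 8.47 and 7.38 CPM in Mta123KO (log2 fold change 0.27 ± 0.13, adjusted p = 0.108), with overlap. Genes of the 2-cell-like state differed between lines, with a median of 0.06 in line 1 and -3.25 in line 2 over 7 tested genes. Of these 3 were decreased, none in both lines. That count was 5 without Control replicate 1_1, and 1 without Control replicate 2_1, Control replicate 2_2 or Mta123KO replicate 2_2. These genes have near-identical copies, so their counts are uncertain.

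Imprinted genes, expressed from the copy of 1 parent, were increased in 16 of 38 cases and decreased in 1. The shares over all genes were 14.1% and 5.93%. In both lines 10 members were increased and 1 decreased. The list median was 1.18 in line 1 and 0.54 in line 2. H19, a non-coding RNA expressed from the maternal copy, was at 3.95, 10.8, 4.93 and 6.06 CPM in control and 3065, 3824, 371 and 474 CPM in Mta123KO (log2 fold change 8.24 ± 0.97, adjusted p = 0.000147). Grb10, a signalling adaptor, fell from 124, 125, 104 and 123 to 21.8, 29.3, 32.6 and 34.7 CPM (log2 fold change -2.01 ± 0.14, adjusted p = 9.97e-06). Meg3, a non-coding RNA of the Dlk1 region, was at 80.3, 89.6, 59.5 and 68.2 CPM in control and 124, 110.3, 86.1 and 95.4 CPM in Mta123KO (log2 fold change 0.48 ± 0.15, adjusted p = 0.0224), a difference of under 2-fold that missed the threshold without Control replicate 2_1 (0.38, adjusted p = 0.0582), without Control replicate 2_2 (0.43, adjusted p = 0.062) and without Mta123KO replicate 1_1 (0.40, adjusted p = 0.0521). It also missed it under ERCC scaling (0.32, adjusted p = 0.237) and in line 2 alone (0.29, adjusted p = 0.121). With the lines summed its adjusted p was 0.145, and 9 imprinted genes were increased. None of 22 clustered protocadherins, cell-surface genes of neurons, was called.

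Genes of DNA methylation moved unequally. Dnmt3l, the cofactor of de novo methylation, rose from 4.49, 4.38, 9.91 and 9.35 to 185, 164, 151 and 126 CPM (log2 fold change 4.48 ± 0.31, adjusted p = 7.92e-06). Uhrf1, which recruits the maintenance enzyme to replicating DNA, fell from 718, 734, 606 and 624 to 264, 255, 283 and 301 CPM (log2 fold change -1.28 ± 0.09, adjusted p = 7.73e-06). Dnmt3b was at 75.6, 68.9, 80.3 and 77.7 CPM in control and 91.4, 91.1, 70.0 and 71.03 CPM in Mta123KO (log2 fold change 0.10 ± 0.11, adjusted p = 0.476), with overlap. In the whole list 3 of 14 tested members were increased and 1 decreased (21.4% and 7.14%), against 14.1% and 5.93% of all genes. Among Polycomb genes, whose complexes place repressive histone marks, 3 of 27 were increased and 1 decreased. These shares, 11.1% and 3.70%, were below those of all genes. Phf19, an accessory subunit, rose from 1.52, 1.46, 2.23 and 2.96 to 19.3, 16.7, 8.41 and 10.6 CPM (log2 fold change 2.75 ± 0.33, adjusted p = 0.000154). Ezh2, the methyltransferase, fell from 66.2, 59.6, 68.1 and 62.1 to 34.8, 34.9, 41.1 and 42.1 CPM (log2 fold change -0.74 ± 0.09, adjusted p = 0.000149). Of 21 genes of other corepressor complexes 1 was increased and 1 decreased, below the background share for increases. These were Pwwp2b, from 1.29, 1.85, 2.04 and 2.78 to 19.5, 18.6, 10.4 and 14.4 CPM (log2 fold change 2.99 ± 0.27, adjusted p = 3.67e-05), and Rcor2, a CoREST subunit, from 129, 129, 118 and 133 to 34.3, 33.04, 46.6 and 45.0 CPM (log2 fold change -1.68 ± 0.12, adjusted p = 1.1e-05).

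The interferon response list had 10 increased and 4 decreased members of 27, against 14.1% and 5.93% of all genes. Ly6a, the surface antigen Sca-1, rose from 0.716, 0.261, 0.379 and 0.324 to 25.7, 26.7, 17.5 and 18.9 CPM (log2 fold change 5.66 ± 0.30, adjusted p = 2.65e-06). Ifitm1, an interferon-induced membrane protein, fell from 67.4, 63.8, 43.7 and 48.6 to 11.1, 13.1, 16.6 and 18.2 CPM (log2 fold change -1.92 ± 0.19, adjusted p = 6.1e-05). Isg15, a core interferon-stimulated gene, was at most 0.0909 CPM in any library and was not tested. The summed list was between 485.8 and 587.3 CPM in control and 425.2 and 456.1 in Mta123KO.

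Signalling readouts are given by pathway. In the list of LIF receptor genes and Stat3 targets, 2 of 16 tested members were increased and 5 decreased (median -0.49). These shares were 12.5% and 31.25%, against 14.1% and 5.93% of all genes. Only 3 were decreased without Control replicate 1_2, Mta123KO replicate 1_1 or Mta123KO replicate 1_2. Bcl3 fell from 37.8, 36.1, 27.2 and 39.5 to 8.40, 8.07, 9.25 and 10.4 CPM (log2 fold change -1.96 ± 0.14, adjusted p = 8.56e-06) and Fosl2, an AP-1 subunit, rose from 0.821, 0.912, 0.593 and 1.74 to 11.4, 14.9, 4.18 and 4.31 CPM (log2 fold change 3.10 ± 0.51, adjusted p = 0.00098). Socs3, the direct feedback inhibitor, was at 43.7, 49.2, 36.4 and 52.5 CPM in control and 47.0, 43.3, 60.1 and 50.8 CPM in Mta123KO (log2 fold change 0.15 ± 0.13, adjusted p = 0.392), with overlap. Of the 21 ERK feedback and immediate-early genes 7 were increased and 2 decreased, against 14.1% and 5.93% of all genes. Fos rose from 1.36, 2.11, 1.16 and 2.01 to 25.8, 14.5, 7.56 and 6.56 CPM (log2 fold change 3.04 ± 0.46, adjusted p = 0.000588). Dusp6, the ERK phosphatase, fell from 15.1, 10.3, 17.8 and 11.3 to 2.19, 1.74, 5.78 and 2.36 CPM (log2 fold change -2.18 ± 0.37, adjusted p = 0.00121), and Etv4, an ETS factor downstream of FGF, from 31.1, 30.1, 47.5 and 49.5 to 5.52, 3.89, 10.9 and 8.63 CPM (log2 fold change -2.45 ± 0.32, adjusted p = 0.00027). Spry4, a feedback inhibitor, was at 3.65, 0.469, 9.32 and 1.504 CPM in control and 3.23, 2.35, 10.1 and 1.24 CPM in Mta123KO (log2 fold change 0.17 ± 0.84, adjusted p = 0.88), with replicates of a line far apart in both genotypes.

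Among FGF ligands and receptors 5 of 15 were increased and 4 decreased, against 14.1% and 5.93% of all genes. Fgf10, a ligand of epithelial branching, fell from 4.05, 2.32, 3.04 and 2.36 to 0.162, 0.264, 0.467 and 0.145 CPM (log2 fold change -3.51 ± 0.37, adjusted p = 8.45e-05). Fgfr3, a receptor, was at 0.734, 0.860, 0.640 and 1.30 CPM in control and 3.69, 4.84, 1.87 and 1.96 CPM in Mta123KO (log2 fold change 1.81 ± 0.37, adjusted p = 0.00306, 0.0572 with the lines summed). The decreased members, named after their values were seen, were Fgf3, Fgf4, Fgf10 and Fgf13, and the increased ones Fgf15, Fgf18, Fgfr2, Fgfr3 and Fgfrl1.

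Wnt pathway components held more increased than decreased members, as did all genes tested (14.1% and 5.93%). Of 37 ligands, receptors and inhibitors 16 were increased, 13 in both lines, and 4 decreased (median 0.78). Only 9 were increased with the lines summed. Wnt10b had 2 counts over the controls and 2.75, 3.19, 0.467 and 0.3998 CPM in Mta123KO (145.2-fold, 95% counting interval 39.9 to 1204). Wnt4 was at 0.105, 0.547, 0.285 and 0.648 CPM in control and 3.81, 3.92, 0.778 and 1.04 CPM in Mta123KO (log2 fold change 2.61 ± 0.67, adjusted p = 0.0104), and in line 2 alone at 1.24, adjusted p = 0.0869. Its adjusted p was 0.0768 with the lines summed. Ror1, a Wnt5a receptor, fell from 1.01, 0.678, 1.47 and 1.62 to 0.277, 0.330, 0.245 and 0.382 CPM (log2 fold change -1.94 ± 0.32, adjusted p = 0.000962). Targets of beta-catenin were mixed, with 7 increased and 2 decreased of 19. Lgr5, the R-spondin receptor, was at 0.0524, 0.287, 0.0712 and 0.139 CPM in control and 3.37, 6.53, 0.423 and 0.781 CPM in Mta123KO (log2 fold change 4.38 ± 0.96, adjusted p = 0.00462, 0.0577 with the lines summed). Sp5, a direct target in ES cells, fell from 34.9, 28.8, 26.8 and 33.05 to 10.8, 11.1, 10.6 and 11.4 CPM (log2 fold change -1.49 ± 0.10, adjusted p = 6.54e-06). Axin2, the most used reporter of the pathway, fell from 73.2, 64.7, 62.5 and 54.3 to 52.3, 53.5, 44.0 and 48.4 CPM (log2 fold change -0.36 ± 0.10, adjusted p = 0.0152), by less than 2-fold. Its adjusted p was 0.128 with the lines summed, and the values were -0.37, adjusted p = 0.262 in the fit of 16 libraries and -0.27, adjusted p = 0.0636 in line 1 alone.

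In the Nodal list 2 of 20 tested members were increased and 1 decreased, the increased ones being Smad3 and Pmepa1, named after their values were seen. That count was 0 without Control replicate 2_1, 1 without Control replicate 2_2 or either line 1 library of Mta123KO, and 4 without Mta123KO replicate 2_2. Inhbb, the activin beta-B chain, fell from 5.47, 6.98, 11.3 and 14.2 to 0.485, 0.638, 0.645 and 0.545 CPM (log2 fold change -4.03 ± 0.33, adjusted p = 2.12e-05). Nodal itself was at 67.8, 58.0, 64.9 and 60.4 CPM in control and 96.7, 86.6, 64.4 and 62.6 CPM in Mta123KO (log2 fold change 0.31 ± 0.14, adjusted p = 0.0997), above control in line 1 only. Lefty1, its inhibitor and target, was at 24.8, 15.4, 14.99 and 9.60 CPM in control and 50.01, 29.8, 23.0 and 9.56 CPM in Mta123KO (log2 fold change 0.79 ± 0.45, adjusted p = 0.171), with wide overlap. Nodal passed without either line 2 library of Mta123KO, and Lefty1 without replicate 2_2, where the values were 0.39, adjusted p = 0.0381 for Nodal and 1.08, adjusted p = 0.0266 for Lefty1. In the BMP list 6 of 27 tested members were increased and 2 decreased, against 14.1% and 5.93% of all genes, and 4 were increased and 1 decreased with the lines summed. Id4 fell from 10.9, 10.8, 9.87 and 7.71 to 1.48, 0.968, 2.80 and 0.999 CPM (log2 fold change -2.66 ± 0.33, adjusted p = 0.0002). Bmp4, a ligand, differed by 0.30 ± 0.56 (adjusted p = 0.683). Id1, a direct target, was at 1.68, 1.56, 3.91 and 2.92 CPM in control and 4.89, 6.03, 1.601 and 1.25 CPM in Mta123KO (log2 fold change 0.45 ± 0.52, adjusted p = 0.5), above control in line 1 and at its lower end in line 2, and Id3 differed by -0.47 ± 0.32 (adjusted p = 0.248), or -0.79, adjusted p = 0.0399 without Mta123KO replicate 2_1.

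Of 24 p53 targets 14 had a higher level at an adjusted p under 0.05, against 26.6% of all genes. By over 2-fold, 4 were increased and 1 decreased, near the background shares. The number increased was 2 without Control replicate 1_2. Perp, a desmosomal p53 target that epithelia also express, rose from 2.62, 2.40, 7.47 and 5.46 to 90.3, 91.2, 28.1 and 25.1 CPM (log2 fold change 3.71 ± 0.57, adjusted p = 0.000646). Gdf15, a stress cytokine, fell from 11.1, 9.12, 9.87 and 12.2 to 3.05, 2.33, 5.56 and 4.56 CPM (log2 fold change -1.45 ± 0.25, adjusted p = 0.00135). Cdkn1a, the p21 cell cycle inhibitor, was at 61.9, 59.1, 56.9 and 60.1 CPM in control and 102, 93.3, 60.0 and 75.9 CPM in Mta123KO (log2 fold change 0.48 ± 0.15, adjusted p = 0.0225). It missed the threshold without Control replicate 1_2, Control replicate 2_1, Mta123KO replicate 1_1 or Mta123KO replicate 1_2, with log2 fold changes of 0.46, adjusted p = 0.0558, 0.45, adjusted p = 0.0605, 0.37, adjusted p = 0.0519 and 0.41, adjusted p = 0.0578. It also missed it under ERCC scaling (0.30, adjusted p = 0.293), in line 2 alone (0.20, adjusted p = 0.119) and with the lines summed (adjusted p = 0.147). Ccnd1, cyclin D1, was at 118, 114, 84.0 and 83.4 CPM in control and 156, 144, 199 and 206 CPM in Mta123KO (log2 fold change 0.82 ± 0.16, adjusted p = 0.00242, 0.0717 with the lines summed). Ccnd2, cyclin D2, rose from 0.681, 0.521, 1.52 and 1.09 to 14.4, 10.2, 2.85 and 2.82 CPM (log2 fold change 2.99 ± 0.61, adjusted p = 0.00313, 0.068 with the lines summed). In the list of D cyclins and CDK inhibitors 3 of 16 tested members were increased and 3 decreased, against 14.1% and 5.93% of all genes. In both lines 2 were increased and 0 decreased.

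Glycolysis genes were lower on balance by small amounts. Of 23 members 13 were lower and 4 higher at an adjusted p under 0.05, against 23.4% and 26.6% of all genes (median -0.35). By over 2-fold 4 were lower and 2 higher, against 5.93% and 14.1%. Ldhb, a lactate dehydrogenase subunit, fell from 127, 123, 95.3 and 99.3 to 24.1, 22.4, 9.70 and 11.3 CPM (log2 fold change -2.72 ± 0.30, adjusted p = 9.83e-05). Eno2, neuronal enolase, rose from 2.38, 4.40, 2.23 and 4.03 to 28.5, 31.3, 15.6 and 18.3 CPM (log2 fold change 2.85 ± 0.30, adjusted p = 8.8e-05). Hk2, a hexokinase, differed by -0.47 ± 0.11 (adjusted p = 0.00526, 0.0989 with the lines summed). Ldha was at 289, 300.03, 224 and 282 CPM in control and 297, 294, 474 and 496 CPM in Mta123KO (log2 fold change 0.51 ± 0.19, adjusted p = 0.0464), above control in line 2 only. Leaving out a library brought its adjusted p over 0.05 in 6 of 8 cases. These ran from 0.55, adjusted p = 0.0684 without Control replicate 1_2 to 0.42, adjusted p = 0.124 without Control replicate 2_1. With the lines summed its adjusted p was 0.218, and in line 1 alone the value was 0.11, adjusted p = 0.411.

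Mitochondrially encoded genes were higher. Of 13 genes 13 were higher at an adjusted p under 0.05 and 8 by over 2-fold, with a median of 1.01. Over all genes these shares were 26.6% and 14.1%. Only mt-Nd2, of complex I, was increased in both lines, at 1073, 720.0, 889 and 733 CPM in control and 2500.3, 2215, 1800.1 and 2030.5 CPM in Mta123KO (log2 fold change 1.32 ± 0.15, adjusted p = 0.000112). The number over 2-fold was 3 without Mta123KO replicate 1_1, 5 without Mta123KO replicate 1_2 and 2 under ERCC scaling. Of 82 nuclear genes of the respiratory chain 1 was increased and 2 decreased, below the shares of 14.1% and 5.93% over all genes. At an adjusted p under 0.05 alone 35 were lower and 8 higher, against 23.4% and 26.6% of all genes (median -0.16). The called members were Cox4i2, increased, and Cox7a1 and Cox7b2, decreased, the first and last of these named after their values were seen. Cox4i2 was no longer increased without Control replicate 2_2 or either line 1 library of Mta123KO, and 1 was decreased without Control replicate 1_2 or Mta123KO replicate 1_1. Cox7a1, a complex IV subunit of muscle, fell from 13.8, 16.1, 15.8 and 16.5 to 4.46, 5.43, 3.91 and 4.23 CPM (log2 fold change -1.78 ± 0.12, adjusted p = 9.26e-06). Most cytosolic ribosomal protein genes were lower, 64 of 88 at an adjusted p under 0.05, against 23.4% of all genes. Their median was -0.34, and none was lower by over 2-fold, or 1 without Mta123KO replicate 2_1. Their sum was between 18420.0 and 19760.0 CPM in control, 14890.0 and 15200.0 in line 1 and 16520.0 and 16880.0 in line 2. Rpl39l, a paralogue whose reads may be shared with its near-identical parent gene, went against them, at 5.43, 8.44, 6.38 and 8.12 CPM in control and 15.9, 15.4, 14.0 and 15.1 CPM in Mta123KO (log2 fold change 1.09 ± 0.14, adjusted p = 0.000298). It and Rpl3l, named after its values were seen, were the increased members, of which none was increased without Control replicate 1_1 and 1 without Control replicate 2_1 or either line 2 library of Mta123KO.

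Few sterol or metallothionein genes were called. In the cholesterol and fatty acid list 1 of 31 tested members was increased and 0 decreased (median -0.17), against 14.1% and 5.93% of all genes. Without Control replicate 2_1 or either line 2 library of Mta123KO, 1 was decreased. None of 4 metallothioneins was called, and Mt1 and Mt2 differed by -0.16 ± 0.14 and -0.38 ± 0.14 (adjusted p = 0.354 and 0.053). Mt2 passed without Mta123KO replicate 2_1 (-0.47, adjusted p = 0.022) or 2_2 (-0.46, adjusted p = 0.028).

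The same genotype contrast differed in the libraries labelled 2iL for many genes. There 2861 genes were increased and 1609 decreased of 21651 tested. Increased genes shared by the labels numbered 1565, or 52.7% of those here and 54.7% of those labelled 2iL, and shared decreased genes 452, or 36.2% and 28.1%. A further 58 genes were increased here and decreased there, and 45 the reverse. In a fit of all 16 libraries, 5306 of 22973 genes (23.1%) had a genotype effect that differed between labels at an adjusted p under 0.05, 2879 with a higher and 2427 with a lower log2 fold change under the label 48h. This held for 885 of the 2075 genes increased in both lines and 306 of the 715 decreased. Both sets were chosen by the fold change under the label 48h, which is part of the difference. With the lines of each group summed, 710 genes passed, and 3364 with ERCC scaling.

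Several naive genes were among those that differed. Klf4 was lower in Mta123KO here (-0.54) and higher under the label 2iL (2.27), a difference of -2.81 ± 0.34 (adjusted p = 2.64e-05). Esrrb was at -0.32 here and 1.37 there, a difference of -1.69 ± 0.22 (adjusted p = 5.49e-05). Tcl1 fell here (-2.57) and was at 0.08 there (difference -2.65 ± 0.65, adjusted p = 0.00807). For all 3, the log2 fold change was lower under the label 48h by the test of the difference. Tcl1 was chosen for its fall here, which is part of that difference. Dnmt3b was at 0.10 here and -1.97 there (difference 2.07 ± 0.20, adjusted p = 3.56e-06), and Sox1 at -0.89 and -2.37 (difference 1.501 ± 0.37, adjusted p = 0.00859). Dnmt3l rose under both labels, by 4.48 here and 1.07 there (difference 3.42 ± 0.32, adjusted p = 2.93e-06). Of the 21 trophoblast genes 6 passed this test, against 23.1% of all genes. Gata3 was at 4.22 and 5.61 (difference -1.39 ± 0.82, adjusted p = 0.251) and Krt8 at 5.14 and 4.26 (difference 0.89 ± 0.86, adjusted p = 0.511), which did not pass. These standard errors leave room for differences of over 2-fold. Krt18 did pass, at 6.49 here and 3.72 there (difference 2.78 ± 0.96, adjusted p = 0.047).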

How the data were processed

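RNA-seq was analysed in 8 libraries, 4 Control and 4 Mta123KO, and the 8 libraries of these genotypes labelled 2iL for the test between labels. The authors trimmed reads with Trim Galore, aligned them to GRCm38 with TopHat2 and counted reads per gene with featureCounts, and deposited 1 table of raw counts per library. How reads with several alignments were treated is not given in the sources used here. Kits were directional, and which of the kits named was used for a library is not given.

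ERCC spike-ins were kept out of library sizes. Of 48709 gene identifiers 48349 were given GENCODE vM21 symbols. Counts were filtered with filterByExpr and TMM scaled, and the genotypes were compared with the quasi-likelihood test of edgeR 4.0.16 in R 4.3.3, with limma 3.58.1. Calls required a Benjamini-Hochberg adjusted p under 0.05 and a log2 change over 1. Line differences used log2 CPM with a prior count of 2. DESeq2 1.42.0 was an alternative. Other steps used Python 3.11.15, pandas 2.3.3, NumPy 2.4.6, SciPy 1.17.1 and Matplotlib 3.10.9, and the tests were run on simulated counts first. Alternatives were other scaling, no filter, a replicate block, lines summed, each line alone and leaving out each library.

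The members and gene lists were chosen with earlier results of these data known. Named genes were a fixed set of pathway genes, the 5 largest changes in each direction among protein-coding genes called in both lines, and the gene of each list with the largest change in each direction among those called in both lines, where the genotype with more expression averaged 1 CPM or more for the last 2 kinds. Others are marked in the text as named after their values were seen. The exceptions are Pou3f1, Dcn, Col3a1 and Col1a1, from a list of cell type markers. Lists that track library features gave, for X inactivation genes, 0 called of 2 tested and, for olfactory receptors, 1 increased and 1 decreased of 5 tested. Promoters are from RefSeq, GRCm38.p6. A few named genes are not reported here.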

Additional observations from a re-analysis of the deposited data

Results flagged for a closer look

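The genotype effect differed between culture labels, by the test of the difference itself, in 5306 of 22973 genes, of which 47 are named here. Each value is the log2 fold change of Mta123KO against control labelled 48h minus that labelled 2iL, so a negative value means a lower fold change under the label 48h. Gsc, Fgf10, Sp5, Lgr5, Tmprss5, Sgo2b and Mobp had too few counts to be tested in the libraries labelled 2iL alone. That side of their difference rests on low counts. Among pluripotency and early lineage genes, it was lower under the label 48h for Klf4 (-2.81), Gsc (-2.76), Tcl1 (-2.65), Eomes (-2.36) and Esrrb (-1.69). Among pluripotency and early lineage genes, it was higher under the label 48h for Gata6 (3.98), Dab2 (2.59), Sall2 (1.501) and Sox1 (1.501). Among epithelial, mesenchymal, matrix and muscle genes, it was lower under the label 48h for Tnni1 (-3.48), Hcn4 (-1.96) and Vim (-0.74). Among epithelial, mesenchymal, matrix and muscle genes, it was higher under the label 48h for Krt18 (2.78), Grhl2 (2.28) and Col11a1 (2.00). Among signalling genes, it was lower under the label 48h for Id4 (-3.26), Fgf10 (-3.21), Inhbb (-3.10), Sp5 (-3.04), Bcl3 (-2.30), Etv4 (-1.54), Ror1 (-1.504), Axin2 (-1.22) and Nodal (-0.68). Among signalling genes, it was higher under the label 48h for Lgr5 (5.38) and Fgfr3 (1.81). Among imprinted, interferon and chromatin genes, it was lower under the label 48h for Ifitm1 (-1.71), Pwwp2b (-1.15), Uhrf1 (-0.70) and Ezh2 (-0.47). Among imprinted, interferon and chromatin genes, it was higher under the label 48h for Dnmt3l (3.42), Meg3 (2.65), Dnmt3b (2.07) and Grb10 (0.93). Among cell cycle, stress and metabolic genes, it was lower under the label 48h for Gdf15 (-1.72), Mt1 (-1.63), Cox7a1 (-1.504), Ldhb (-1.42) and Mt2 (-1.32). Among cell cycle, stress and metabolic genes, it was higher under the label 48h for Eno2 (1.69), Rpl39l (1.40), Ldha (1.36) and Ccnd1 (1.18). Among genes with the largest decreases, it was lower under the label 48h for Tmprss5 (-4.39), Sgo2b (-4.02), Mobp (-3.96) and Kirrel2 (-3.58). The genes with the largest decreases, and those named as the largest change of a list in 1 direction, were chosen for their change under the label 48h. Such genes lean toward a difference of that sign, since that change is part of it. Some of the others, such as Klf4 and Esrrb, came from the fixed set of pathway genes. 

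Of 186 groups of 4 libraries checked, those of a named gene and genotype with at least 1 CPM in the highest library, 4 held a library whose gap to its nearest neighbour as a share of the group's range was above Dixon's 95% critical value for 4 samples, and chance flags about 1 in 20 groups. The highest Control library stood apart for Cdh1 (446.2 CPM), and the lowest for Gsc (2.96 CPM) and Grb10 (103.5 CPM). The highest Mta123KO library stood apart for Dusp6 (5.78 CPM).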

How the results depend on the processing

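The counts of increased and decreased genes stayed within 1.5 times under DESeq2 (3846 and 1583), without the low-count filter (3886 and 1615), with ERCC scaling (2611 and 1784) and with line 1 alone (3605 and 1822) or line 2 alone (2876 and 1445). Leaving out each library gave 2846 to 3189 increased and 1193 to 1398 decreased genes. With adjusted p alone, 5608 genes were increased and 4940 decreased. With the libraries of each line summed, 823 were decreased and 2168 increased, and 710 genes differed between labels, against 3364 with ERCC scaling. The cause was not tested, except that summing leaves fewer samples. Replicate numbers did not pair the samples: deviations of same-numbered libraries correlated at -0.10, -0.05, 0.03 and -0.09. A replicate block gave 3203 increased and 1324 decreased genes, 2067 and 710 in both lines, and 5917 that differed between labels. Of 112 named genes tested, 92 had an adjusted p under 0.05, here with no limit on size. None reversed under any alternative run, and 26 no longer passed that adjusted p under at least 1, all 26 with the lines summed. Depth limits genes of few counts, where the control level is known only within its counting interval.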
